A study of Salmo salar with 79 samples.

Results

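The early wound response of crowded fish was described from the skin of post-smolt Atlantic salmon held at high fish density (HFD, 100 kg/m3). 5 wounds sampled 1 day post wounding (dpw) were compared with skin of 4 fish sampled before wounding ("intact"), which makes 9 of the 79 arrays of the series. The other groups of the series were fish held at 20 kg/m3 (control) and later days of healing, and of these the control fish before wounding (4) and at 1 dpw (5), and the HFD wounds at 3, 7 and 14 dpw (5 each), are used below for comparison. The fish were wounded with a skin punch biopsy needle, and each array held the RNA of 1 fish. Fish were killed when sampled, so intact and wounded values come from different individuals. Each density was kept in a single tank: intact and 1 dpw HFD fish shared theirs, while density and tank cannot be told apart. The fish had been stocked at their density before wounding according to the methods, whereas the series' own description calls the first sampling a sample from before the treatment; both HFD groups are called HFD here as the labels do. A sample was a piece of bulk tissue from the wound or from intact skin. In such tissue fewer cells of a type and less RNA per cell cannot be told apart.

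Fish skin is a living epithelium with mucous cells over a dermis that carries scales, and it borders on muscle and fat. A wound in vertebrate skin is filled within hours by phagocytes, first of all neutrophils, which follow chemokines, complement fragments and leukotrienes, cross the vessel wall with help of selectins, and release oxidants and proteases. Epidermal cells close the gap by crawling over it, and the division of cells and the synthesis of new matrix belong to later stages of repair.

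Expression was measured with a salmon oligonucleotide array in a single colour. A level below is the log2 of a probe's signal minus the log2 of the 75th percentile of its array, so it ranks fish for a probe but not probes against each other. The log2 fold change (log2FC) is the mean of the 5 wounds minus the mean of the 4 intact fish and carries its standard error (SE). It was tested with limma. A probe was called where the log2FC lay beyond 0.8 in either direction with an adjusted p (Benjamini-Hochberg over all tested probes) under 0.05. Probes were tested where they stood well above background on at least 4 arrays. Names exist for 771 probe identifiers, taken from the study's supplementary gene list, and 766 of them were tested. That list was drawn up by the authors from differences between HFD and control on arrays that include these, and therefore it is no random sample of genes.

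The 75th percentile of signal ranged from 367.7 to 478.7 in intact fish and from 296.8 to 701.9 at 1 dpw, and between 78.2% and 88.9% of probes were well above background per array. The 9 arrays lay on 4 slides, and 1 slide held both groups (2 arrays of each). Without intact fish 3 there were 3101 called probes, and without 1 dpw fish 2 there were 2865, against 3334 with all fish. The 7 probes of keratinocytes and the 12 of mucous cells were well above background on all intact arrays. The same held for the probes of red blood cells (4 of 4), B cells (5 of 5), fat cells (3 of 3) and scale and bone (5 of 5). Detection of markers therefore does not identify the tissue here. Muscle transcripts varied between wounds. The summed level of 5 muscle probes, on a linear scale relative to the 75th percentile, was 18.5 to 29.0 in intact fish and 4.05 to 34.4 at 1 dpw. Such a sum, here and below, is weighted to the probes of its set with the highest signal.

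In all, 3334 of 12747 tested probes (26.2%) were called, 1215 up (9.53%) and 2119 down (16.6%). At the unadjusted p of 0.05 with the same fold limit, the study's own criteria, 3975 passed (31.2%). Groups did not overlap at 3874 probes (30.4%). These counts include probes that were well above background on no array of a group and passed the filter through the other group alone. The share of falls depends on the scaling. With the 75th percentile the median log2FC over all tested probes was -0.295, so that a log2FC near -0.3 is the middle of the array, while scaling by the array median gave -0.023 with 1761 probes called up (13.8%) and 1155 down (9.06%), and quantile normalization gave 1485 up and 1352 down. Of the 766 named probes 378 (49.3%) were called, 211 up and 167 down, with a median log2FC of -0.06. At 312 of these the groups did not overlap. The gene groups below consist of named probes, so their counts are to be read against the 49.3% called among named probes. No group was tested against that share.

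The 12 largest rises among named, called probes, with 1 probe taken per name, included attractants of leukocytes, metalloproteinases, a cytokine of the IL-6 family and a decoy receptor of IL-1. Macrophage inflammatory protein 2-alpha, a CXC chemokine that draws neutrophils in mammals, had levels of -7.42, -7.46, -5.43 and -5.23 in the 4 intact fish and 1.64, 2.44, 2.53, 1.64 and 2.52 in the 5 wounds. All wounds lay above all intact fish. Its log2FC was 8.54 ± 0.51 (371-fold, adjusted p = 8.87e-06), the highest among the tested probes, although the probe was well above background in only 2 of 4 intact fish, so the intact level is poorly measured. Leukocyte cell-derived chemotaxin 2, named for its attraction of neutrophils, had intact levels of -6.59, -5.97, -4.53 and -5.86 (well above background in 1 fish) and wound levels of -0.67, 2.12, 0.45, 0.07 and 1.1, with log2FC 6.35 ± 0.57 (adjusted p = 8.18e-05). Fish 1 had the lowest level among the wounds and fish 2 the highest, and the groups lay far apart. A probe listed only as CC chemokine followed with 5.69 ± 0.66 (adjusted p = 0.000304).

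**Figure D1:**
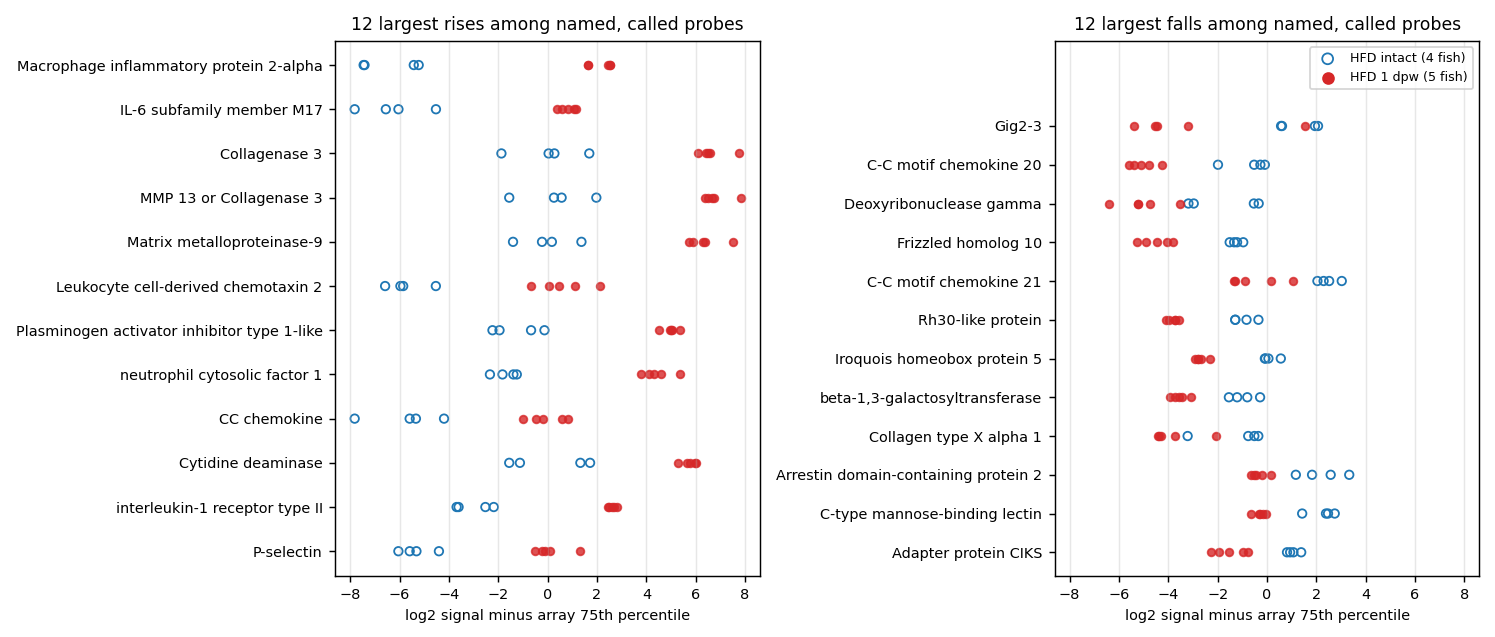
Levels of the 12 largest rises and the 12 largest falls among named, called probes (1 probe per name, the one with the largest change), with 1 open circle per intact HFD fish and 1 filled circle per HFD wound at 1 dpw, on the log2 scale relative to the 75th percentile of the array. The groups are separate for all 12 rises, from the 8.54 of macrophage inflammatory protein 2-alpha to the 5.46 of P-selectin; among the falls they overlap for Gig2-3, where wound 4 stays at 1.55, and for Collagen type X alpha 1, where intact fish 3 is at -3.22.

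Most of the other chemokine probes fell. Macrophage inflammatory protein 2-alpha has no category in the study's list. Of the 20 probes with the chemokine category 2 rose (chemotaxin 2 and the CC chemokine above), 11 fell and 7 were not called, with a median log2FC of -1.23 against -0.295 over all probes. The falls were in C-C motif chemokines 13, 20, 21 and 28 and in C-X-C motif chemokine 14. C-C motif chemokine 20, the ligand of CCR6, had intact levels of -0.09, -0.27, -1.99 and -0.52 and wound levels of -4.78, -4.25, -5.40, -5.60 and -5.10 at the probe with the largest change (-4.31 ± 0.41, adjusted p = 0.000118). All wounds lay below all intact fish, and 1 of 5 wounds was no longer well above background. The other probes of this chemokine gave -3.43 ± 0.49, -1.33 ± 0.38 and -1.23 ± 0.43, the last of which was not called (adjusted p = 0.0513). C-C motif chemokine 21, which guides lymphocytes and dendritic cells through CCR7, fell at 3 probes by 2.71, 2.82 and 2.93 on the log2 scale. At the last of these the intact levels were 2.04, 2.52, 3.03 and 2.29 and the wound levels 0.16, 1.03, -1.32, -1.28 and -0.91, with fish 1 and 2 the least reduced of the wounds and no overlap. C-C motif chemokine 28, a mucosal chemokine in mammals, fell at 3 probes, with -2.21 ± 0.39, -2.03 ± 0.27 and -1.23 ± 0.26. Within the slide that held both groups 1 rise was called. That fit took only probes well above background on all 4 of its arrays, so chemotaxin 2 was not tested there.

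Receptors for such signals mostly rose. In the study's chemokine receptor category, which also holds the receptors of C5a and C3a, 4 of 5 probes rose and none fell (median 1.51). The receptor of the complement fragment C5a, a strong neutrophil attractant, had intact levels of -5.35, -5.31, -4.48 and -4.62 and wound levels of -0.32, 1.11, 0.14, -0.27 and 0.30 (log2FC 5.13 ± 0.33, adjusted p = 1.18e-05), and that of C3a rose by 2.34. CXCR4, the receptor of CXCL12, rose by 1.5. C-C chemokine receptor type 3 rose by 1.24, but was not called without intact fish 1 or 2 (adjusted p = 0.0558 to 0.0561). The IL-8 receptor, a neutrophil receptor for CXC chemokines, rose by 3.18 ± 0.46 and was well above background in 1 intact fish and in all 5 wounds.

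Cytokines and their receptors rose as a group: 9 of 12 probes rose and none fell, with a median of 2.98. The IL-6 subfamily member M17, a fish cytokine of the IL-6 family, had intact levels of -6.56, -7.82, -6.05 and -4.53 (well above background in 2 fish) and wound levels of 0.58, 1.08, 1.14, 0.83 and 0.39. Its log2FC was 7.04 ± 0.54 (adjusted p = 3.41e-05), and the 5 wounds were much closer to each other than the intact fish were. IL-11, another cytokine of this family, had intact levels of -3.31, -3.41, -2.48 and -2.58 and wound levels of 1.73, 2.31, 2.56, 2.41 and 3.26. With log2FC 5.40 ± 0.32 (adjusted p = 8.87e-06) all wounds were above all intact fish. The type II receptor of IL-1, a decoy that binds IL-1 without signalling, was raised by 5.62 ± 0.32 at one probe and by 2.53 ± 0.29 at another. IL-1 beta itself rose by 4.23 ± 0.46 and was well above background in 1 of 4 intact fish. The probe named IL-1 beta 2 gave 0.50 ± 0.30 and was not called (adjusted p = 0.215).

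The study's immune effector category is given here as phagocyte effectors, although not all of its members belong to phagocytes. Of its 13 probes 8 rose and 2 fell (median 2.88). Neutrophil cytosolic factor 1, a cytosolic subunit of the NADPH oxidase that makes superoxide, had intact levels of -1.83, -2.34, -1.25 and -1.39 and wound levels of 4.31, 5.34, 3.78, 4.11 and 4.61 (log2FC 6.13 ± 0.34, adjusted p = 8.75e-06). Myeloperoxidase, the granule enzyme that turns hydrogen peroxide into hypochlorous acid, had -1.44, -1.57, -1.32 and -1.34 in intact fish and 1.80, 3.03, 0.77, 1.18 and 1.37 in wounds (log2FC 3.04 ± 0.40). At both probes wound 2 was the highest and the groups were separate. A second probe of factor 1 rose by 2.41 ± 0.26. Neutrophil cytosolic factor 2 rose by 3.06 ± 0.33, and the beta chain of cytochrome b-245, the membrane part of the oxidase, by 3.01 and 2.88 at its probes. The small subunit of the flavocytochrome gave 0.05 ± 0.36 and was not called (adjusted p = 0.922). Cathelicidin, an antimicrobial peptide, rose by 3.63 ± 0.92; here intact fish 3 (3.08) was close to the lowest wound (3.25). The falls were of beta-defensin 4, an antimicrobial peptide of epithelia, and of a probe named complement component 9, perforin-1, with log2FC of -1.62 and -1.61. As a whole, 10 of 11 neutrophil and phagocyte markers rose, and their summed linear level was 4.20 to 7.45 in intact fish and 30.7 to 83.5 in wounds. The part that more phagocytes in the wound had in the rises of these groups was not tested.

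Enzymes and receptors of eicosanoids rose at 9 of 13 probes and fell at 2 (median 3.01). The probes for the leukotriene branch covered the activating protein of 5-lipoxygenase (4.23 ± 0.41), 5-lipoxygenase itself (3.18 ± 0.33), leukotriene A-4 hydrolase (3.49 ± 0.41) and the leukotriene B4 receptor (3.02 ± 0.48), and all of these were called. For the activating protein the intact levels were -1.52, -1.63, -2.25 and -2.48 and the wound levels 1.95, 3.70, 1.87, 1.79 and 2.01, with wound 2 far above the others. In the prostaglandin branch the inducible cyclooxygenase, prostaglandin G/H synthase 2b, had intact levels of -7.22, -5.68, -5.07 and -4.54 (well above background in 2 fish) and wound levels of -1.22, -1.46, -0.49, -0.77 and -0.97, with log2FC 4.65 ± 0.48. The groups did not overlap. The constitutive cyclooxygenase, synthase 1, gave 1.76 ± 0.64 with adjusted p = 0.0569, and the level of wound 2 (0.22) stood apart from the rest (-3.42 to -2.35). Lipocalin-type prostaglandin D synthase-like protein fell (-1.43). The study's category also holds vascular endothelial growth factor C, a growth factor of lymph vessels (2.53).

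P-selectin, the adhesion molecule of activated vessel wall and platelets, rose at 3 probes, by 5.46 ± 0.42, 4.65 ± 0.25 and 4.53 ± 0.24. At the last the intact levels were -2.94, -2.85, -2.90 and -2.60 and the wound levels 1.17, 1.28, 2.22, 1.89 and 1.99, so that the intact fish lay close together. Toll-like receptor 5, which binds flagellin, was well above background in no intact fish and in all wounds (-2.28, -2.02, -2.46, -2.91 and -2.21), and was at least 9.55-fold higher in wounds. In the lectin and selectin group 6 of 11 rose and 2 fell. C-type mannose-binding lectin was the larger fall (-2.55 ± 0.27), from 2.47, 2.74, 1.42 and 2.39 to -0.03, -0.33, -0.63, -0.17 and -0.31, with no overlap. The smaller was of rhamnose binding lectin STL1 (-1.62 ± 0.54). The group had 1 fall without intact fish 1, 2 or 4 or without 1 dpw fish 1, 3, 4 or 5. Complement probes rose at 5 of 8, the C5a receptor included. Factor D, a protease of the alternative pathway, gave 2.19 ± 0.53 and 2.11 ± 0.54 at its called probes and -0.53 ± 0.31 at a probe that was not called. Component C7-1, a part of the membrane attack complex, rose by 1.16 ± 0.26. Within the slide that held both groups 3 complement probes were called up, and with slide as a term in the fit 1 was. The fit within the slide left out probes that were dim on any of its 4 arrays, so its count is over fewer probes.

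Of 10 probes assigned to TNF and NF-kappa-B signalling 7 rose and 2 fell. The TNF decoy receptor, which binds ligand without signalling, had intact levels of -1.0, -1.15, -1.89 and 0.63 and wound levels of 4.37, 3.57, 4.30, 4.51 and 4.59 (log2FC 5.12 ± 0.45, adjusted p = 7.54e-05). Here wound 2 was the lowest of its group. NF-kappa-B inhibitor alpha, an inhibitor that NF-kappa-B itself induces, rose by 2.55 ± 0.26 and 1.16 ± 0.25 at its called probes and gave 0.36 ± 0.31 at a further probe that was not called, and the p100 subunit by 2.06. Adapter protein CIKS, which couples the IL-17 receptor to NF-kappa-B, fell from 0.94, 1.07, 1.38 and 0.81 to -0.97, -0.79, -2.26, -1.96 and -1.52, with log2FC -2.55 ± 0.31. The other fall was of a probe named Nxf1 protein, an exporter of mRNA (-2.43 ± 0.29).

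Acute phase transcripts were mixed, with 3 of 16 probes up, 2 down (secreted phosphoprotein 24, -2.27 ± 0.65, and a C-reactive protein-like pentraxin, -0.95 ± 0.29) and 11 not called. Serum amyloid A, the classical acute phase protein, was not called at any of its 4 probes. At the probe with the log2FC of 1.84 ± 0.90 (adjusted p = 0.135) the intact levels were -3.85, -5.13, -0.28 and -1.01 and the wound levels -0.62, -1.41, -0.52, -1.16 and 0.06. Intact fish 3 and 4, which lay together on a slide without 1 dpw wounds of HFD fish, were as high as the wounds, and intact fish 1 and 2 were low. Without intact fish 3 there were 7 rises in this group, and within the slide that held both groups, which has intact fish 1 and 2, there were 8. A natterin-like protein rose at both of its probes (3.23 ± 0.64 and 2.74 ± 0.57) and toxin-1 at 1 of 2 (2.29 ± 0.40 and -0.42 ± 0.41). The number of falls was 0 without intact fish 1 or 3 or 1 dpw fish 5, and 1 without intact fish 2 or 4 or 1 dpw fish 1 or 3. It was also 0 with quantile normalization, with normexp background correction, in the table scaled by the authors and with slide as a term. Secreted phosphoprotein 24 gave -0.895 in the authors' table and -0.212 with normexp (limma, adjusted p = 0.3 and 0.153).

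Metalloproteinases that digest collagen and gelatin, together with their inhibitor, formed the group with the highest median: 10 of 10 probes rose, with a median log2FC of 5.71. Collagenase 3 (MMP13), which cleaves fibrillar collagen, had intact levels of -1.88, 0.04, 1.69 and 0.27 and wound levels of 6.44, 7.75, 6.50, 6.11 and 6.58. The log2FC was 6.65 ± 0.62 (100-fold, adjusted p = 9.91e-05). Matrix metalloproteinase-9, a gelatinase stored in neutrophil granules, had -1.40, -0.23, 1.37 and 0.17 in intact fish and 6.31, 7.52, 5.90, 5.74 and 6.36 in wounds (log2FC 6.39 ± 0.53), and 2 other probes gave 6.08 and 4.51. Its last probe, well above background in no intact fish, was at least 10.2-fold higher in wounds and is counted among the 10, although it passed the filter through the wounds alone. In both genes intact fish 1 was the lowest and intact fish 3 the highest of the intact fish, and wound 2 the highest of the wounds. Metalloproteinase inhibitor 2, which blocks these enzymes, rose by 4.14, and matrix metalloproteinase-25, a membrane protease of leukocytes in mammals, by 3.80. Plasminogen activator inhibitor type 1-like, which restrains the dissolving of clots, had intact levels of -2.24, -1.95, -0.67 and -0.13 and wound levels of 4.50, 5.02, 5.01, 4.95 and 5.36 (log2FC 6.22 ± 0.42, adjusted p = 1.62e-05), with wide separation of the groups. Cytidine deaminase, an enzyme of pyrimidine salvage, was among the 12 largest rises as well (5.65 ± 0.65), with intact fish 1 and 2 at -1.12 and -1.56 and intact fish 3 and 4 at 1.32 and 1.72.

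**Figure D2:**
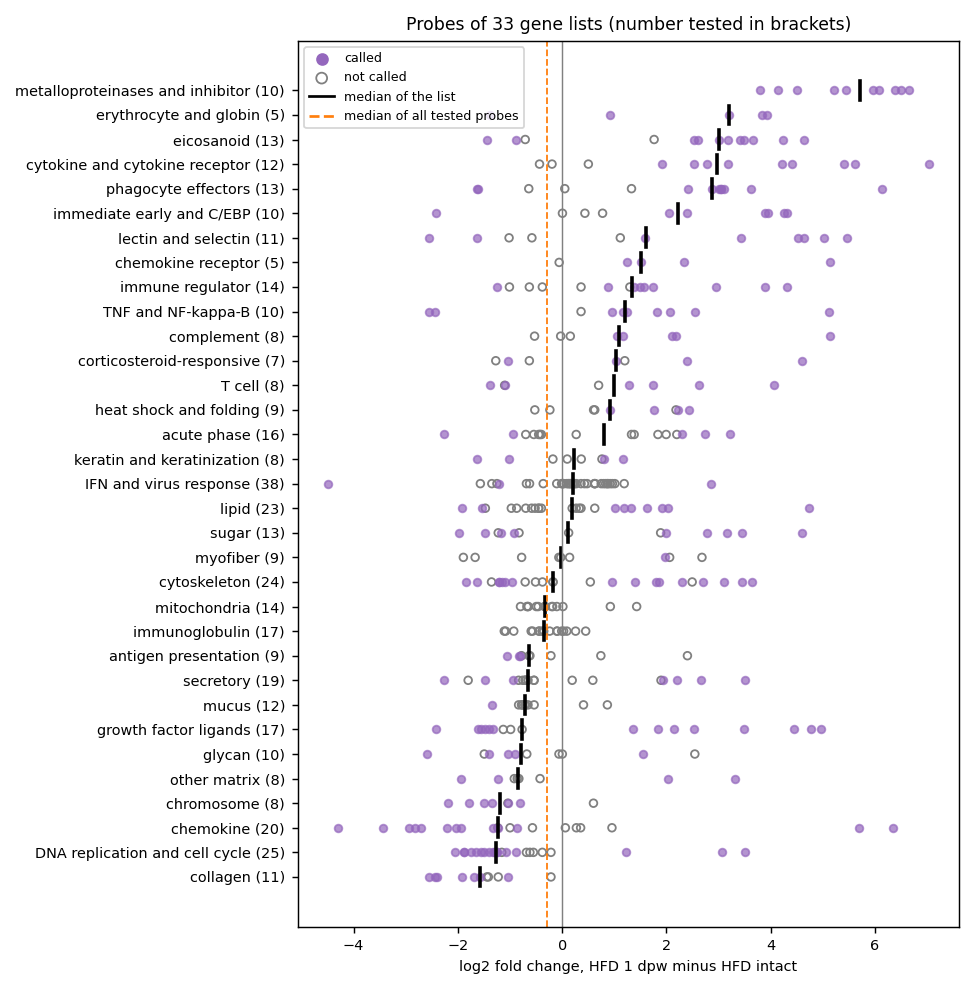
The log2FC (HFD 1 dpw minus HFD intact) of each tested probe in 33 gene lists, ordered by the median of the list (black bar), with called probes filled and probes not called open; the dashed line is the median of all tested probes at -0.295. Metalloproteinases have the highest median, at 5.71, and collagens the lowest, at -1.58.

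The immediate early and C/EBP group, drawn by name and not limited to transcription factors, rose at 6 of 10 probes and fell at 1. CCAAT/enhancer binding protein beta2, a factor that drives acute phase and myeloid genes, had intact levels of -3.96, -3.30, -2.24 and -2.10 and wound levels of 1.29, 1.97, 1.22, 1.08 and 1.49 (log2FC 4.31 ± 0.38). Immediate early response 2-2 rose by 4.26 ± 0.27. The 5 wounds were closer together than the intact fish for both. The fall was of Kruppel-like factor 11a (-2.41 ± 0.35). Growth factors and related names went both ways, with 8 of 17 probes up and 6 down. Epigen and proheparin-binding EGF-like growth factor, ligands of the EGF receptor that drives migration of keratinocytes, rose by 4.77 ± 0.36 and 3.49 ± 0.31. Not all such ligands rose, since proepiregulin was among the falls given below. Heparin-binding growth factor 1 rose by 4.45 ± 0.40, from -1.24, -0.66, -2.22 and -1.62 to 2.93, 3.01, 3.22, 3.89 and 2.05, with no overlap, and angiotensinogen, the precursor of angiotensin, by 4.97 ± 0.49. Connective tissue growth factor, a matrix protein tied to fibrosis in mammals, rose by 2.15 ± 0.23. The falls were of Kruppel-like factor 11a, serine protease HTRA1, fibroblast growth factor 13, growth hormone-regulated TBC protein 1-A, mimecan and proepiregulin, between -2.41 and -1.32. Their number was 3 without intact fish 4 or 1 dpw fish 2 or 5, and 3 with scaling by the array median. Names tied to corticosteroids in vertebrates rose at 3 of 7 probes and fell at 1, dexamethasone-induced Ras-related protein 1 (-1.04); this fall was not called without intact fish 1 or 3 or 1 dpw fish 4, nor with scaling by the array median. Steroidogenic acute regulatory protein, which carries cholesterol into mitochondria for the synthesis of steroids, rose by 4.60 ± 0.32 (well above background in 1 of 4 intact fish), and nocturnin, a gene under circadian control, by 2.39 ± 0.29. The third rise was of the kinase Sgk1 (1.04). It was not called in 7 of the fits with 1 fish left out (limma, adjusted p up to 0.11), nor with slide as a term (adjusted p = 0.224).

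7 of 11 collagen probes fell and none rose, with the lowest median of the groups described (-1.58). Collagen type X alpha 1, in fish a collagen of scale- and bone-forming cells, had intact levels of -0.35, -0.76, -3.22 and -0.52 and wound levels of -3.73, -4.40, -4.29, -4.37 and -2.07, with log2FC -2.56 ± 0.67 (adjusted p = 0.0167). The groups overlapped, as intact fish 3 lay within the wounds and wound 5 above that fish. The second probe for this gene (-2.40 ± 0.69) behaved alike and was not called without intact fish 1, 2 or 4 or 1 dpw fish 2 or 3 (adjusted p = 0.0525 to 0.066). Collagen type XI alpha 1, a cartilage collagen, fell with log2FC -2.43 ± 0.45, and collagen VII, which anchors the epidermis to the dermis, with -1.92 ± 0.23. Collagen I gave calls at some probes. The alpha 1 chain of collagen I gave -1.42 ± 0.60 (adjusted p = 0.0918), with intact levels of 2.83, 1.75, 0.30 and 2.79 and wound levels of -0.25, -0.48, 1.24, 1.57 and 0.42. The alpha 3 chain, found in fish, was called at both probes (-1.69 and -1.58), but not with scaling by the array median nor without, for the first, intact fish 1, 2 or 4 or 1 dpw fish 1 or 2 (adjusted p = 0.0506 to 0.081) and, for the second, intact fish 1, 2 or 4 or 1 dpw fish 1, 2 or 3 (adjusted p = 0.0567 to 0.107). Of the 7 falls, 4 were left without intact fish 1 or 2 or 1 dpw fish 3, 3 without intact fish 4 or 1 dpw fish 2, 4 with scaling by the array median and 2 with slide as a term. Without intact fish 3 there were 9 falls. The alpha 1 chain of collagen I was then called (limma, adjusted p = 0.0224), as were probes of the alpha 2 chain (adjusted p = 0.0143 and 0.0193).

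Other matrix probes rose at 2 of 8 and fell at 2. Fibronectin, a protein of the provisional wound matrix, rose by 2.03 ± 0.31, and hyaluronidase-2, which cuts hyaluronan, by 3.32 ± 0.35. Matrix Gla protein, an inhibitor of calcification, fell from 0.45, 0.57, -0.34 and -0.18 to -1.77, -0.76, -2.46, -2.35 and -1.76 (log2FC -1.95 ± 0.36, adjusted p = 0.00342), and laminin beta-4, of the basement membrane, fell with log2FC -1.23 ± 0.23. In both the wounds lay below the intact fish. The summed level of 9 fibroblast and dermis markers was 14.8 to 58.2 in intact fish and 8.10 to 22.4 in wounds, and that of 5 scale and bone markers was 26.9 to 131 and 10.3 to 62.1. These sums follow their brightest probes and do not show that all members moved alike. Of the 9 probes 3 were called down, and of the 5 also 3, with none called up. The 3 of the 9 were the alpha 3 chain of collagen I at both probes and mimecan. None of these was called with scaling by the array median (limma, adjusted p = 0.0601 to 0.0879) or with slide as a term (0.28 to 0.389). Mimecan was also not called without intact fish 1 or 4 or 1 dpw fish 1, 2 or 5 (adjusted p = 0.0689 to 0.1). How far a loss of dermis and scale with the punch took part in these falls was not tested.

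In the DNA replication and cell cycle group 16 of 25 probes fell and 3 rose (median -1.26), and 12 of the group were called down with scaling by the array median. The spindle checkpoint protein MAD2A had intact levels of -0.06, -0.12, -0.35 and -0.29 and wound levels of -1.53, -2.86, -2.47, -2.27 and -2.19 (log2FC -2.06 ± 0.25, adjusted p = 0.000376). Ubiquitin-conjugating enzyme E2 C, which starts the destruction of mitotic cyclins, had 0.69, 0.68, 0.74 and 0.65 in intact fish and -0.23, -2.16, -1.46, -0.97 and -1.16 in wounds (log2FC -1.88 ± 0.33). The intact fish were nearly alike, and wound 2 was the lowest of its group at both probes. Proliferating cell nuclear antigen, the sliding clamp of DNA replication, gave -0.69 ± 0.29 and was not called (adjusted p = 0.0948). The rises were of Pim-1, a kinase of cytokine signalling (3.06 ± 0.28), of cyclin-dependent kinase inhibitor 1C, which halts division (1.22 ± 0.34), and of GINS protein PSF3, described below with the probes it resembled. The rises numbered 1 without intact fish 1, 2 or 4. Among chromosome proteins 6 of 8 fell, led by N-acetyltransferase ESCO1, which fixes the cohesion of sister chromatids (-2.19 ± 0.34), and inner centromere protein B (-1.79 ± 0.24). 3 of these falls were called with slide as a term.

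The largest falls, with 1 probe per name, held genes of varied function. Frizzled homolog 10, a receptor for Wnt ligands, had intact levels of -1.51, -1.22, -0.97 and -1.33 and wound levels of -4.46, -3.80, -5.29, -4.07 and -4.89 (log2FC -3.25 ± 0.30, adjusted p = 9.74e-05). Iroquois homeobox protein 5, a transcription factor of patterning, went from -0.09, 0.06, 0.56 and -0.07 to -2.94, -2.30, -2.81, -2.80 and -2.69 (log2FC -2.82 ± 0.20). In both the groups were more than 1 log2 unit apart. Also among the 12 largest falls counted in this way were deoxyribonuclease gamma (-3.27 ± 0.73, but -2.15 with adjusted p = 0.137 with slide as a term), Rh30-like protein (-2.88 ± 0.23), beta-1,3-galactosyltransferase (-2.59 ± 0.28) and arrestin domain-containing protein 2 (-2.56 ± 0.40).

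Keratin probes went both ways. 2 of 8 keratin and keratinization probes rose and 2 fell, with a median of 0.23. Type II keratin E2 fell from 1.83, 2.75, 2.57 and 3.20 to 1.07, 1.45, 0.19, 0.91 and 1.15 (log2FC -1.63 ± 0.32, adjusted p = 0.00461), whereas type II keratin E3 gave -0.18 ± 0.39. Type I keratin S8 gave 1.17 ± 0.37 and keratin 18 0.81 ± 0.21, and these rises were called with all fish. Neither was called without intact fish 1 or 2 or 1 dpw fish 3 or 4, nor with quantile normalization. Keratin S8 was also not called without 1 dpw fish 1 or 2. The falls numbered 1 without intact fish 1, 2 or 4 or 1 dpw fish 1, 2 or 3. Of 12 mucus probes 1 fell and none rose, while 7 had an unadjusted p under 0.05 by limma, and the median was -0.71. The 8 probes of zymogen granule membrane protein 16, a lectin of mucus-secreting cells in mammals, gave log2FC from -0.54 to -0.83 and none was called, although without intact fish 3 the mucus group had 7 falls and within the slide that held both groups 4. At one of them the intact levels were 7.15, 6.75, 5.52 and 6.25 and the wound levels 5.25, 5.64, 5.96, 6.04 and 5.41. Probes of giant mucus protein disagreed, at 0.41 ± 0.21 and -1.34 ± 0.42. The second, the fall of the group, was not called without intact fish 1, 2 or 4 or 1 dpw fish 2 or 3 (adjusted p = 0.0605 to 0.094), nor with slide as a term. Mucin 5AC gave 0.87 ± 0.35 (adjusted p = 0.0828).

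Of 5 probes in the erythrocyte and globin group 4 rose and 1 fell. The fall was of ammonium transporter Rh type B (-1.38 ± 0.24), and erythropoietin receptor had the smallest rise (0.93 ± 0.22). The 3 probes of hemoglobin subunit alpha-4 gave 3.92 ± 0.51, 3.83 ± 0.50 and 3.20 ± 0.55, and, outside that group, erythroid 5-aminolevulinate synthase, the first enzyme of heme synthesis, 3.63 ± 0.38. At the first hemoglobin probe the intact levels were -3.32, -1.96, -4.57 and -2.87 and the wound levels 0.15, 1.75, 0.85, 0.85 and 0.12. The groups were separate, with intact fish 3 the lowest. The summed level of the 4 red blood cell marker probes (hemoglobin and the synthase) was 1.70 to 4.99 in intact fish and 13.7 to 39.3 in wounds; whether blood in the sampled wound accounts for this was not tested. Of fat cell markers perilipin, which coats lipid droplets, rose from 0.27, -1.01, 0.29 and -0.43 to 4.47, 4.35, 4.55, 4.20 and 4.96 (log2FC 4.73 ± 0.29, adjusted p = 1.1e-05). Adiponectin and the adipocyte fatty acid-binding protein, also markers of fat cells, gave -0.80 ± 0.39 and -1.47 ± 0.64 and were not called. In lipid metabolism as a whole 7 of 23 probes rose and 2 fell, and 1 fall was left without intact fish 4 or 1 dpw fish 2. None of 14 mitochondrial probes was called by limma (1 had an unadjusted p under 0.05), and their log2FC ranged from -0.80 to 1.43. With quantile normalization 1 was called, as it was without intact fish 3 or 1 dpw fish 4. Fructose-1,6-bisphosphatase 1, an enzyme of gluconeogenesis, rose by 3.45 ± 0.39 in a sugar group with 5 of 13 up and 4 down; the falls were 2 without intact fish 1, 2 or 4 or 1 dpw fish 2 or 5.

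Of the groups not yet described, the immune regulator group rose at 8 of 14 probes and fell at 1, with Src-family tyrosine kinase SCK (2.96 ± 0.28) and annexin A2-A (1.75 ± 0.21) next to C/EBP beta; 4 rises were called with slide as a term. Cytoskeleton probes rose at 9 of 24 and fell at 7. Pleckstrin and coronin-1A, proteins of blood cells in mammals, rose by 3.10 ± 0.43 and, at both probes of coronin-1A, 1.81 and 1.86, and gelsolin, which cuts actin filaments, fell at 2 probes (-1.63 ± 0.32 and -1.21 ± 0.22). The group had 4 falls with scaling by the array median. Of 10 glycan probes 1 rose and 4 fell; 1 fall was called with scaling by the array median, and no rise was called without intact fish 1, 2 or 4 or 1 dpw fish 2, 3 or 5, but 2 without 1 dpw fish 1. Of 9 myofiber probes tropomodulin-3, which caps actin filaments, was called (1.98 ± 0.17), with a further rise without 1 dpw fish 1 or 2, while fast myotomal muscle actin 2 gave -1.67 ± 0.97 and myosin light polypeptide 4 gave 2.68 ± 1.04, neither of them called. Heat shock and folding probes rose at 4 of 9, with heat shock protein beta-11 at 1.76 ± 0.26; 1 rise was left without intact fish 4 and 2 without 1 dpw fish 2, 3 or 5, and 1 with slide as a term. Secretory probes rose at 4 of 19 and fell at 3, with haptoglobin, which binds free hemoglobin, at 2.67 ± 0.50. The falls were 1 without intact fish 1 or 1 dpw fish 5 and 5 without intact fish 3. Over all tested probes 9.53% were called up and 16.6% down, and of the named probes 49.3% were called. Counts such as those of the secretory probes therefore do not set a group apart.

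None of 17 immunoglobulin probes was called by limma (1 had an unadjusted p under 0.05; median -0.35). Levels varied between fish: the membrane-bound form of Ig mu had 2.20, 1.43, 2.00 and 3.89 in intact fish and 1.12, 1.08, 2.89, 2.58 and 4.67 in wounds. Of 38 interferon and virus response probes 1 rose and 2 fell; without intact fish 2 there were 4 falls, without intact fish 4 there were 4 rises and 1 fall, and without intact fish 1 there was 1 fall. Cholesterol 25-hydroxylase-like protein A, whose product is antiviral in mammals, was the rise (2.86 ± 0.38). Gig2-3, an interferon-induced gene of fish, had intact levels of 2.06, 0.57, 0.60 and 1.94 and wound levels of -4.47, -5.38, -3.18, 1.55 and -4.53. Wounds 1, 2, 3 and 5 were far below the intact fish, and wound 4 lay within their range. The log2FC of -4.50 ± 1.23 (adjusted p = 0.0204) was not called without intact fish 1 or 4 (adjusted p = 0.0521 to 0.0529), nor with slide as a term (-2.13, adjusted p = 0.364). The other named Gig2 probes did not follow it, with 1.19 ± 0.67 for Gig2-2 and 0.75 ± 0.59 for Gig2-4. The other fall of the group was the smaller of the gelsolin falls given above, at a probe that the study's list places in this category. Antigen presentation fell at 3 of 9 probes. The largest of these falls was of ubiquitin-conjugating enzyme E2 T (-1.07). The others were of MHC class II (-0.82 ± 0.19) and of an HLA class II alpha chain. None of the group was called down with scaling by the array median, and 1 was without intact fish 4 or 1 dpw fish 3 or 4. In the T cell group, by contrast, 4 of 8 rose and 2 fell. The largest rise was of CD276, an inhibitory ligand of T cells carried by many cell types (4.07 ± 0.32). The T-cell antigen receptor fell with log2FC -1.09 ± 0.26, and the other fall was of lymphokine-activated killer T-cell-originated protein kinase, a mitotic kinase in mammals (-1.38 ± 0.31). The receptor chain probe TCR-gamma constant region 2 rose by 1.74 ± 0.57, which was not called without intact fish 1, 2 or 3 or 1 dpw fish 1, 3, 4 or 5 (adjusted p = 0.0594 to 0.0932). 2 rises were left in this group without intact fish 2 or 1 dpw fish 1, 3, 4 or 5.

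To ask whether crowded fish answered the wound differently from control fish, the 1 dpw responses were subtracted. In control fish 3568 of 12767 probes (27.9%) were called at 1 dpw. The HFD and control responses share no array. Of 13290 probes tested for the difference none was called by limma (0.00%), with 1430 at an unadjusted p under 0.05, 1 called probe with normexp background correction and a lowest adjusted p of 0.321. In simulated data with the spread of the HFD arrays, this fit called 28% of 100 probes changed by 1 log2 unit. It called 61% of 100 probes changed by 2 log2 units. The other simulated probes, of 12694 in all, were unchanged, and no slide effect was simulated. These shares are therefore not the share of real differences that would be called. The absence of calls therefore does not show that the responses were equal. At the study's criteria 993 probes (7.47%) passed, and among the 766 named probes 100 did. The number over all probes was 637 without HFD intact fish 4, 631 with probes well above background on every array, 285 with slide as a term and 178 with normexp background correction. In 74 of the 100 the log2FC was lower in HFD than in control and in 26 it was higher. The named probes were listed by the authors for differences between HFD and control on arrays that include these. Their count, direction and unadjusted p, here and below, are therefore not independent of that choice. The direction over all probes depends on scaling, since the median difference was -0.114 with the 75th percentile and 0.112 with the array median.

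Proheparin-binding EGF-like growth factor had the lowest unadjusted p for a difference among the 766 named probes. Its log2FC was 3.49 ± 0.31 in HFD and 5.29 in control, a difference of -1.80 ± 0.35 (unadjusted p = 0.000101). Macrophage inflammatory protein 2-alpha rose by 8.54 in HFD and 10.61 in control (difference -2.07 ± 0.70, unadjusted p = 0.00925). The HFD intact level of this probe is poorly measured, as said above, and the difference shares that limit. Gig2-3 was at -4.50 in HFD and 1.36 in control (difference -5.85 ± 1.89, unadjusted p = 0.00659). None of these passed after adjustment. C-C motif chemokine 28, at the probe of -2.21 in HFD, gave -0.20 in control (difference -2.0 ± 0.44, unadjusted p = 0.000325), while its other probes gave -1.41 and -0.24 in control. Serum amyloid A at the probe described above changed by 1.84 in HFD, not called, and by 4.38 in control, called, and the difference was -2.54 ± 1.14 (unadjusted p = 0.0401). Frizzled homolog 10 and C-type mannose-binding lectin were lower in HFD (-3.25 and -2.55) than in control (-1.96 and -1.34), with unadjusted p = 0.00602 and 0.00225. Heparin-binding growth factor 1 and the cytochrome b-245 beta chain had the higher response in HFD (4.45 and 3.01, against 3.06 and 1.75 in control; unadjusted p = 0.0163 and 0.0142). By group, the medians in HFD and control were 2.98 and 3.65 for cytokines and their receptors, 5.71 and 6.26 for metalloproteinases, 2.88 and 2.19 for phagocyte effectors, and -1.58 and -1.05 for collagens, and no member of these groups was called for a difference.

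**Figure D3:**
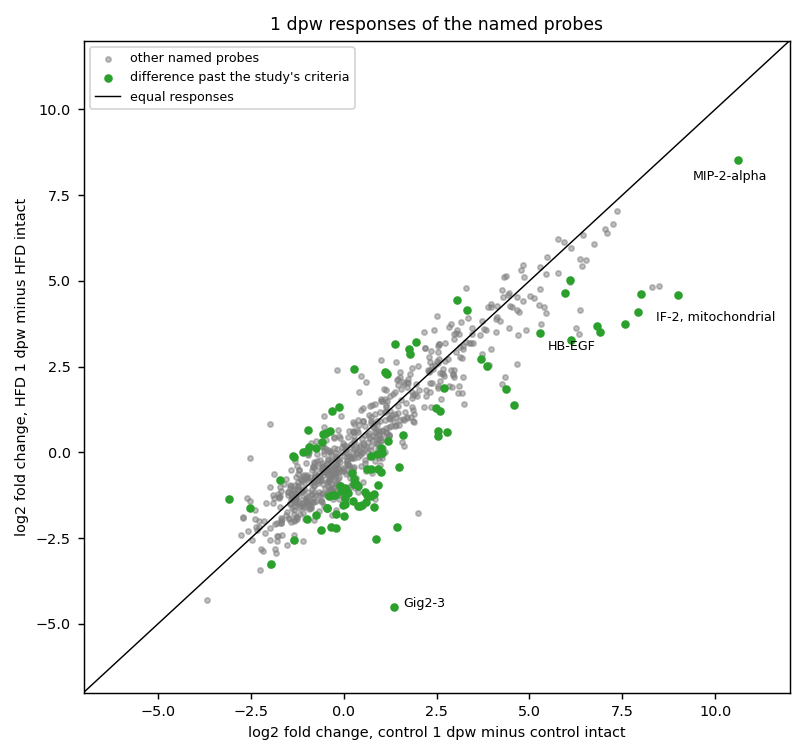
The log2FC at 1 dpw of the 766 named probes in HFD fish (vertical axis) against that in control fish (horizontal axis); green points pass the study's criteria for the difference, and points on the line have equal responses. Gig2-3 lies at -4.50 in HFD and 1.36 in control, and none of the differences passed after adjustment.

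The same 4 intact fish served as reference at 3, 7 and 14 dpw, so that these values are not independent of those at 1 dpw. The intact HFD arrays lay on slides that held no HFD wound of 3 or 7 dpw and, of 14 dpw, only wound 1. At 3 and 7 dpw the day and the slide therefore cannot be told apart. Of all probes tested per day, 38.8% were called on day 3 (14.0% up and 24.8% down), 32.1% on day 7 (11.9% and 20.2%) and 31.5% on day 14 (11.7% and 19.8%). Matrix metalloproteinase-9 had log2FC 6.39 ± 0.53 at 1 dpw and 7.45 ± 0.46, 5.62 ± 0.52 and 4.32 ± 0.52 at 3, 7 and 14 dpw. IL-11 was at 5.40 ± 0.32, 4.46 ± 0.28, 3.44 ± 0.58 and 2.91 ± 0.28 on these days. Both were called on each day. Prostaglandin G/H synthase 2b went from 4.65 ± 0.48 through 4.35 ± 0.53 and 2.70 ± 0.64 to 0.88 ± 0.56. C-C motif chemokine 21 was lowest at 3 dpw (-6.06 ± 0.31). MAD2A, the spindle checkpoint protein, was at -2.06 ± 0.25, -1.63 ± 0.17, 1.02 ± 0.20 and 0.88 ± 0.18, and in its DNA replication and cell cycle group 14 of 25 probes were called up and 2 down at 14 dpw, against 3 and 16 at 1 dpw. Matrix Gla protein kept on to lower values, -1.95 ± 0.36, -3.11 ± 0.44, -4.77 ± 0.44 and -5.53 ± 0.47. Zymogen granule membrane protein 16, not called at 1 dpw, had -0.76 at 1 dpw and -1.60, -2.05 and -2.01 later at the probe described above, and type I keratin S8 had 1.17, 3.67, 3.98 and 3.59. Differences between days were not tested.

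**Figure D4:**
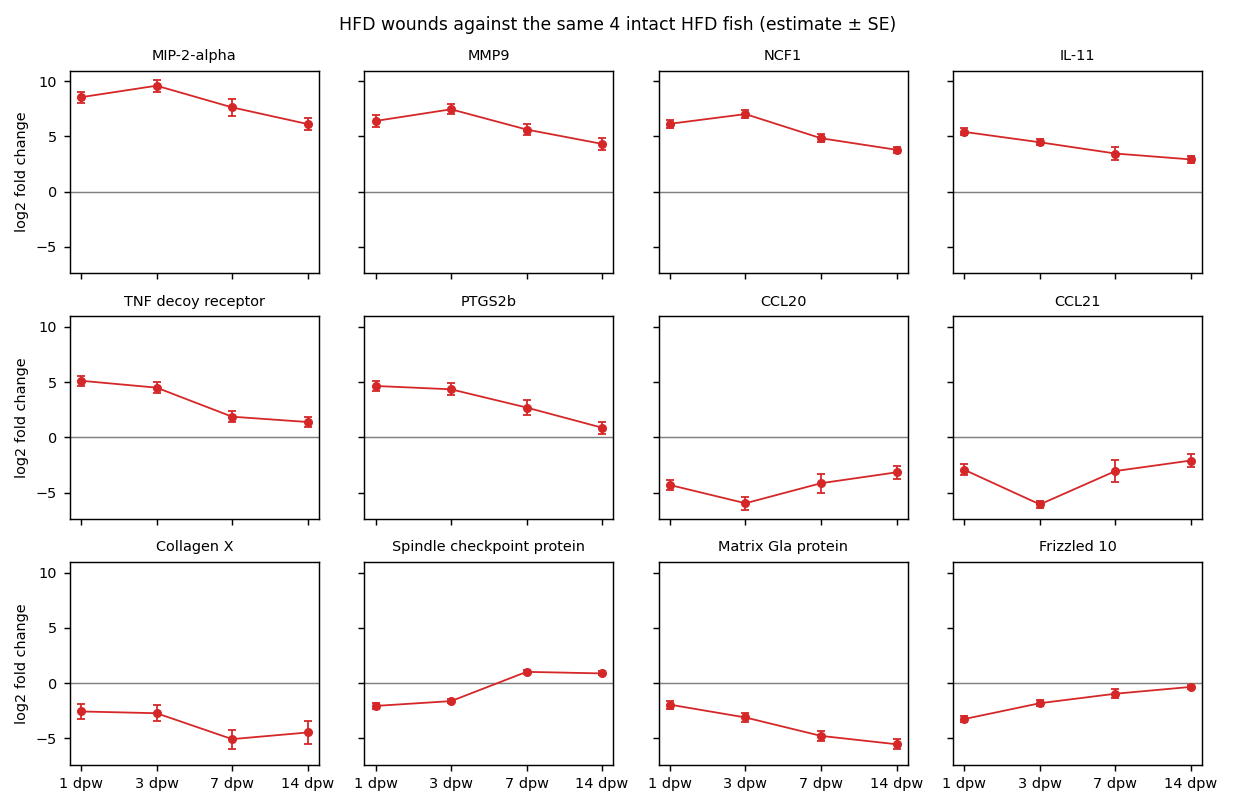
The log2FC of 12 genes in HFD wounds at 1, 3, 7 and 14 dpw, each against the same 4 intact HFD fish, with error bars of 1 SE. Matrix metalloproteinase-9 goes from 6.39 at 1 dpw to 4.32 at 14 dpw, and MAD2A (spindle checkpoint protein) from -2.06 to 0.88. No slide held both intact HFD fish and HFD wounds of 3 or 7 dpw.

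A set of 7 probes of unrelated names, chosen after their values were seen, separated the fish within the groups. They were mitochondrial translation initiation factor IF-2, the adhesion receptor CD97, isoform 2 of the glycolytic regulator 6-phosphofructo-2-kinase/fructose-2,6-biphosphatase, TBC1 domain family member 13, a reverse transcriptase, an espin-like protein and PSF3. IF-2 had intact levels of -2.67, -1.60, 4.22 and 1.82 and wound levels of 2.46, 6.25, 6.14, 3.78 and 6.53. For each of the 7 intact fish 1 was the lowest of all intact fish and fish 3 the highest, and wounds 1 and 4 were below wounds 2, 3 and 5. The probes of the other isoforms of the glycolytic regulator did not share this order. The log2FC of the 7 ranged from 3.51 to 4.84 with SE from 1.18 to 1.53, and 5 of them were called, IF-2 with adjusted p = 0.0322. In control the log2FC was 9.0 for IF-2 and 6.26 for the espin-like protein. Each of the 5 lost its call without some single fish: IF-2 without intact fish 1 or 2 or 1 dpw fish 2, 3 or 5 (adjusted p = 0.0651 to 0.0865), CD97 without intact fish 1, 2 or 4 or 1 dpw fish 2, 3 or 5 (adjusted p = 0.0571 to 0.0946), the kinase probe without intact fish 1, 2 or 4 or 1 dpw fish 2, 3 or 5 (adjusted p = 0.0508 to 0.0782), PSF3 without intact fish 1, 2 or 4 or 1 dpw fish 2, 3 or 5 (adjusted p = 0.0668 to 0.116) and the espin-like protein without intact fish 1, 2 or 4 or 1 dpw fish 2, 3 or 5 (adjusted p = 0.0752 to 0.122).

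**Figure D5:**
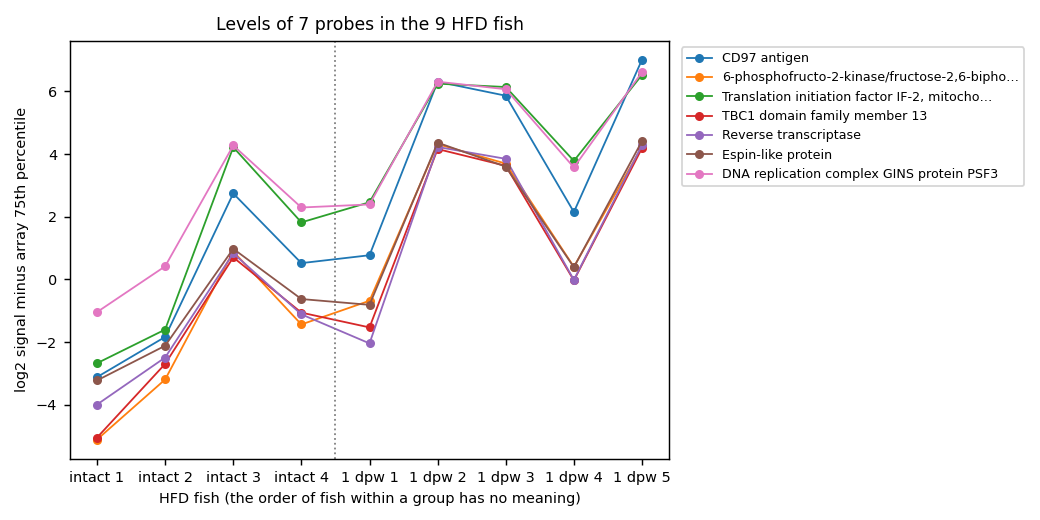
Levels of the 7 probes in the 4 intact HFD fish (left of the dotted line) and the 5 HFD wounds at 1 dpw, on the log2 scale relative to the 75th percentile of the array; lines join the values of a probe. IF-2 ranges from -2.67 to 4.22 among intact fish and from 2.46 to 6.53 among wounds.

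2 further probes without a name were among the largest changes over all tested probes. Probe Ssa#S35491168 was well above background in no intact fish and in all wounds (-1.53, -0.72, 2.31, 2.47 and 0.34), and was at least 73.9-fold higher in wounds. Probe Ssa#CB504774 had intact levels of -2.46, -2.63, -1.80 and -2.19 and was well above background in no wound, at least 12-fold lower.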

How the data were processed

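RNA from a piece of the wound, or from intact skin, was labelled with Cy3 and hybridised to a custom Agilent salmon array with 14841 probes other than controls. The extraction kit differs between the labels (RNeasy Mini) and the methods (PureLink Pro 96). The deposited scanner files hold spot intensity as written by Feature Extraction 12.0.1.1, with background subtracted and each array on its own scale. A table of intensities scaled by the authors, by a step not given in the sources used here, was deposited as well and served, after log2, as an alternative. Among its columns for the 5 HFD wounds, 4 resembled the scan of another HFD wound more than their own, so values of single fish come from the scanner files.

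Processed signals were turned to log2, the log2 of the array's 75th percentile was subtracted, and control spots and outlier spots were left out. Probes well above background on at least 4 arrays of a fit entered lmFit and eBayes of limma (version 3.58.1, under R 4.3.3), with 2 groups or, for the difference of responses, 4, with Benjamini-Hochberg adjustment over all tested probes. A probe well above background on no array of a group is given in the text only with a bound and no p, since it passed the filter through the other group alone. Such probes were still tested, and they are counted among the calls where they met the call rule. For this bound each dim array took its lowest level among probes well above background, or the probe's own level where that was higher, and their mean was set against that of the other group.

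Array data carry no read depth; the number of arrays limits the precision. The fits were tested on simulated data with known changes. There the wound fit called 34% of 100 probes changed by 1 log2 unit and 74% of 100 changed by 2, so a probe not called is not shown to be unchanged.

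Members and gene lists were chosen with earlier results of these data known. Gene lists follow the functional category or the name in the study's supplementary list. Named were the 12 largest rises and falls with a name, up to 4 called members per list with members not called where needed, the extremes over all probes, the largest differences between responses, other probes of a gene whose probes disagree, and cell type markers. Further probes that the text gives with values, such as those of interleukin-1 beta, C-C motif chemokine 28, the leukotriene B4 receptor, matrix metalloproteinase-25, proliferating cell nuclear antigen, the members listed as falls of their groups and other probes of genes already named, were chosen after their values were seen. Alternatives were another scaling, background correction, filter, block, baseline, test and call rule, the authors' table, and each fish left out. Probes of near-identical gene copies cannot be told apart, and no probe sequences were used.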

Additional observations from a re-analysis of the deposited data

Results flagged for a closer look

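In 16 of 368 groups of values (4.35%), over both groups of the probes named by the rule, 1 fish lay far from the rest of its group by Dixon's criterion; chance alone gives about 1 in 20. Wound 2 accounted for 8 of the 16. It was high for collagenase 3 (7.75, others 6.11 to 6.58), the probe named MMP 13 or collagenase 3 (7.82, others 6.36 to 6.76), the 5-lipoxygenase-activating protein (3.70, others 1.79 to 2.01), a sulfide quinone reductase-like protein (1.35, others 0.04 to 0.23), antithrombin (2.59, others -0.41 to 0.22), coronin-1A (3.35, others 2.10 to 2.40) and Protein FAM111A (-2.61, others -6.81 to -5.90). It was low for the TNF decoy receptor (3.57, others 4.30 to 4.59).

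Intact fish 3 was low for Collagen type X alpha 1 (-3.22, others -0.76 to -0.35) and for a probe of C-C motif chemokine 20 (-3.13, others -1.17 to -1.11), and high for CXCR4 (-1.38, others -2.16 to -2.08). Wound 5 was high for Collagen type X alpha 1 (-2.07, others -4.40 to -3.73), and wound 4 was low for a probe similar to a polypeptide N-acetylgalactosaminyltransferase (-2.62, others -0.69 to -0.31). Single intact fish stood apart for proheparin-binding EGF-like growth factor (fish 1 at -4.29, others -2.99 to -2.88), SOX-9 (fish 4 at 0.59, others 0.80 to 0.84) and 1 probe of neutrophil cytosolic factor 1 (fish 2 at -2.33, others -1.69 to -1.57).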

How the results depend on the processing

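The 3334 calls became 1465 with normexp background correction and quantile normalization, 1630 with slide as a fixed term and 2101 within the slide that held both groups, an alternative chosen after seeing the data that used 4 arrays and 11137 probes. The cause of the first was not tested; in the other cases only the slide with 2 fish of each group bears on the comparison. With 1 fish left out the count lay between 2687 and 3492. Other alternatives gave 2604 (the authors' table) to 4027 (intact fish of both densities pooled) calls, among them 2675 with analysis of variance, 3538 without the filter on dim probes and 3134 with slide as a random term (correlation within slides 0.2122). The share of rises among calls was 36.4% with the 75th percentile, 52.3% with quantile normalization, 57.6% with normexp, 60.4% with the array median, 64.5% in the authors' table and 51.9% with slide as a fixed term.

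The difference between HFD and control responses had 0 calls, 1 with normexp and 993 by the study's criteria. With 1 fish left out it had 0 to 2, with 2 calls without control wound 4 and 1 call without HFD intact fish 1. Of the 993, the HFD log2FC was below the control log2FC at 882 probes and above it at 111; these numbers were 446 and 362 with the array median and 377 and 294 with quantile normalization. With 1 fish left out 637 (without HFD intact fish 4) to 1354 (without HFD intact fish 1) passed, and 614 with fish number as a replicate block.

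Of 184 probes named by the rule 141 were called, with 114 to 155 under the alternatives, and 114 of the 141 stayed called without any 1 fish. None of the 141 changed sign. Some of the probes that were not called did, such as type II keratin E3 (-0.422 to 0.088 with 1 fish left out). Fish number as a replicate block gave 2777 calls for the wound, 0 for the difference and 130 among the named probes. The numbers name different fish and gave correlations of 0.27, -0.22, -0.13 and 0.08 between fish of 1 number, so no pairing was assumed. Probes that were well above background in only some intact fish have intact levels near the detection limit, and their fold changes rest on that limit.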
